A study of Mus musculus with 8 samples.

Results

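Elastic fibers give the lung its recoil, and the genes described here encode 10 of their components: Eln, Fbn1, Fbln1, Fbln2, Fbln5, Efemp1, Efemp2, Mfap2, Mfap4 and Mfap5. They were taken by name from the 27179 genes of a raw count table, after its Entrez Gene identifiers had been matched to mouse symbols, and 10 of 10 were found. The table holds 4 QZ1-hi and 4 QZ1-lo bulk RNA-seq libraries from mouse lung. The comparison asks how cells with a high signal of a protease-activated probe differ from cells with a low signal. All 8 libraries came from the lungs of C57BL/6 mice (female C57BL/6J in the study's methods) of the genotype labelled Eml4-Alk translocation, aged 18 to 22 weeks and 11 to 12 weeks past tumor induction. In this model an adenovirus carrying Cas9 and guide RNAs, given through the trachea, rearranges the Eml4 and Alk genes in lung cells of the grown mouse, so that the fusion is not inherited, and lung adenocarcinomas follow. Every mouse had received 4.5 nmol of QZ1-(PEG2K) into a vein, and its lungs were removed 2 h later. QZ1 is a quenched Cy5 probe whose fluorescence appears, and whose polyarginine tag can bind nearby cells, once proteases cut its linker. Live cells negative for CD45 and CD11b, both blood cell markers, were sorted into QZ1-hi and QZ1-lo by that fluorescence, with at least 100000 cells per population. By the study's reporting summary, the QZ1-lo gate ended below the start of the QZ1-hi gate, so cells of intermediate signal were in neither population. No library from a healthy lung or from a mouse without the probe is compared here, so the results contrast cells of tumor-bearing lungs only. Which libraries of the 2 populations share a mouse is stated nowhere.

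An elastic fiber has a core of elastin laid down on a scaffold of microfibrils. Fibrillins build the microfibrils, microfibril-associated glycoproteins bind to them, and short fibulins bring the elastin precursor, tropoelastin, together with the lysyl oxidases that cross-link it. In the lung these genes are made mainly by fibroblasts, myofibroblasts, smooth muscle and the cells of vessel walls, and most of the elastin is laid down as the alveoli form.

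Of the 10 genes, 9 were higher in the QZ1-hi population at an adjusted p under 0.05 (edgeR's quasi-likelihood test), where 9.88% of the 15583 genes tested were higher and 8.21% were lower. The log2 fold changes of QZ1-hi relative to QZ1-lo ran from 0.67 to 3.77 with a median of 3.11, where the median of all tested genes was 0.02. The same number, 9 of 10, had no QZ1-hi library at or below a QZ1-lo library, as did 11.9% of all genes tested. The remaining gene was Fbln5. These are levels in sorted bulk populations, in which fewer cells of a type and less RNA per cell cannot be told apart. Values below are counts scaled to library size as CPM, with TMM factors, SE is the standard error of a log2 fold change, and values in QZ1-hi are listed for libraries 4591, 4593, 4595 and 4597 and in QZ1-lo for libraries 4592, 4594, 4596 and 4598, in that order.

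**Figure D1:**
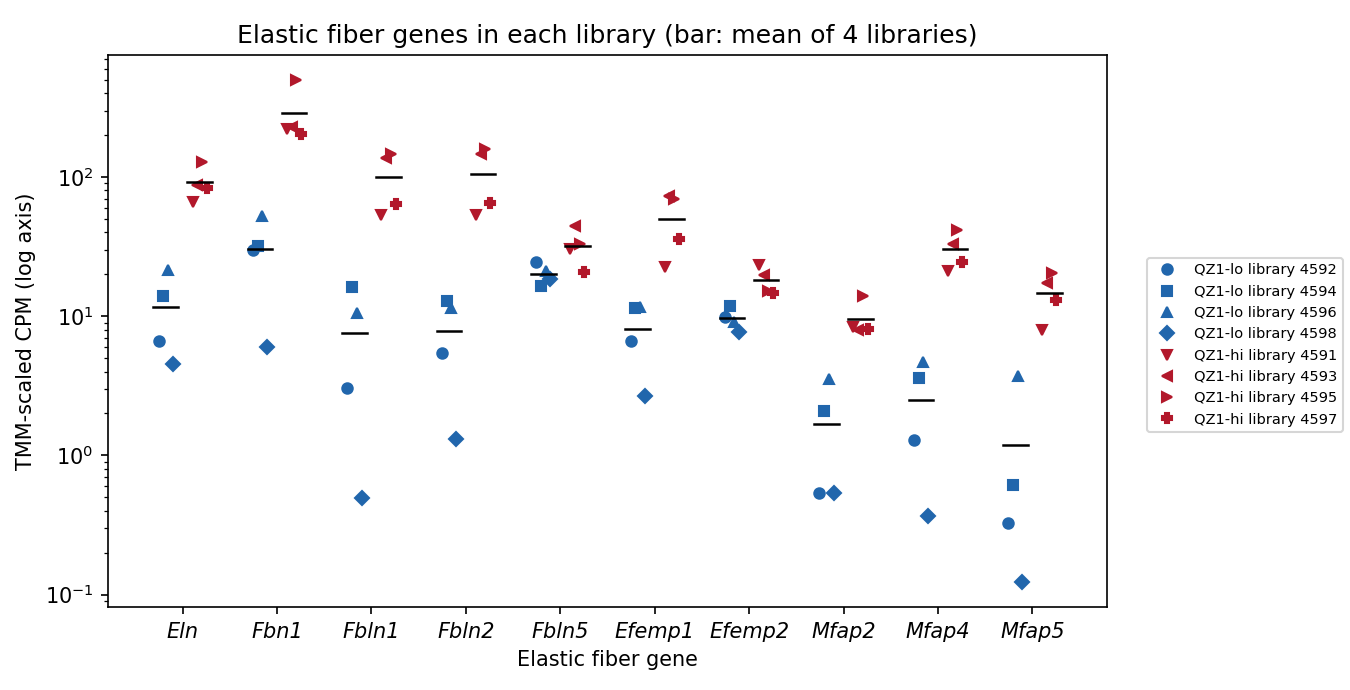
TMM-scaled CPM (log axis) of the 10 elastic fiber genes in each of the 8 libraries, with QZ1-lo in blue, QZ1-hi in red, 1 marker shape per library and a bar at the mean of 4 libraries. The populations are apart for 9 genes and overlap for Fbln5, and library 4598 is the lowest QZ1-lo library for 9 genes.

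The promoters of Fbln5 and Efemp2, the 2 genes with the smallest differences, are shown with those of Fbln1 and Mfap2, which differed more. Each is the 200 bases before the outermost RefSeq start site on GRCm38.p6, read along the gene's strand, and capitals mark matches on either strand to the TATA box (TATAAA), the CCAAT box (CCAAT) or the GC box (GGGCGG). The Fbln5 sequence lies at chr12:101819120-101819319 (minus strand), Efemp2 at chr19:5473746-5473945 (plus), Fbln1 at chr15:85205749-85205948 (plus) and Mfap2 at chr4:141010224-141010423 (plus).
Fbln5: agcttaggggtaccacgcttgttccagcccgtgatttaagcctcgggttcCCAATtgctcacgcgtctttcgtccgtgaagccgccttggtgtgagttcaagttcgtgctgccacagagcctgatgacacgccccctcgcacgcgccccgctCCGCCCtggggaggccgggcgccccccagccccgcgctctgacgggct
Efemp2: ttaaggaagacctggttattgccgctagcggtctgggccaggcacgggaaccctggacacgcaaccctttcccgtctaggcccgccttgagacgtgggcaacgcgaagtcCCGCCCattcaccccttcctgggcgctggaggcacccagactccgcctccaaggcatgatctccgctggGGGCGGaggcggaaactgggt
Fbln1: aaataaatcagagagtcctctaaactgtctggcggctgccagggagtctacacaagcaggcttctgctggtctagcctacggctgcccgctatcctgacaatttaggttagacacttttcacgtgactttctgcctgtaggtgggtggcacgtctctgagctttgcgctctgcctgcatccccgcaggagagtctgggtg
Mfap2: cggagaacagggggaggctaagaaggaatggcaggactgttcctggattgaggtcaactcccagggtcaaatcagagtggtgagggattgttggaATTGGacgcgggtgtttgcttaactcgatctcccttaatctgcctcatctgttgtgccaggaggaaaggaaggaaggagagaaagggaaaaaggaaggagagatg
The Fbln5 and Efemp2 promoters had 20 and 15 CpG dinucleotides and a GC content of 66.5% and 65.0%. Fbln1 had 7 CpG (54.5% GC) and Mfap2 had 4 (51.0% GC), against medians of 5 CpG and 53.0% GC over 27020 mouse promoters of the same length. Fewer CpG than in Fbln5 were found in 87.4% of those promoters, and fewer than in Efemp2 in 77.3%. Of the genes with an entry whose sequence is not shown, Fbn1 had 11 CpG, Efemp1 had 10 and Fbln2 had 8, which are also above the median. For Fbn1 and Efemp1 the window reaches into the gene's listed span, so it does not lie wholly before the gene's outermost start. For Fbln2 the window (chr6:91212564-91212763, plus) lies wholly within the span, which starts at 91212460, so its entries do not describe bases before that start. Fbln1 and Mfap2, shown for contrast, had the fewest CpG of the 7 genes with an entry, although Fbn1, Efemp1 and Fbln2 also differed more. Whether CpG number goes with the size of the differences was not tested. GC boxes were matched in Efemp2 (2 matches) and in Fbln5, Fbn1, Efemp1 and Fbln2 (1 match each), and in 31.3% of all promoters. A CCAAT box was matched in Fbln5 and Mfap2 and in 30.1% of all promoters, and no TATA box was matched in any of the 7, against 10.6% of all promoters. An E-box (CANNTG) was matched in Fbln1, Fbln2, Fbln5 and Mfap2 (57.9% of all promoters), an AP-1 site (TGANTCA) in Efemp1 (5.5%) and a TEAD site (GGAATG) in Mfap2 (10.2%). These are matches of letters in short windows, which show no binding.

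Eln (Entrez Gene 13717, chr5:134702595-134747368, minus strand, GRCm38), which encodes tropoelastin, had 66.3, 88.2, 127.8 and 82.95 CPM in QZ1-hi and 6.65, 13.9, 21.35 and 4.50 CPM in QZ1-lo. The lowest QZ1-hi library was thus above the highest QZ1-lo library. The means were 91.3 ± 26.1 CPM (SD, n = 4) and 11.6 ± 7.65 CPM (SD, n = 4), which gave a log2 fold change of 2.98 with an SE of 0.43 (adjusted p = 0.000853, edgeR). Behind these values were between 110 and 590 counts per QZ1-lo library and between 1392 and 2211 per QZ1-hi library. Over the 15 other settings and left-out libraries that were tried, the log2 fold change stayed between 2.52 and 3.45.

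Fbn1 (Entrez Gene 14118, chr2:125300594-125506485, minus), which encodes fibrillin-1, the main structural protein of microfibrils, had the highest mean CPM of the 10 genes in both populations. It had 219.3, 227.4, 494.7 and 203.9 CPM in QZ1-hi and 30.1, 32.1, 52.3 and 6.02 CPM in QZ1-lo. Library 4595 held more than any other QZ1-hi library and library 4598 less than any other QZ1-lo library, without overlap between the populations. The change came to 3.25 log2 units (SE 0.54, adjusted p = 0.00173). A share of 20.1% of the exonic bases of Fbn1 is overlapped by Gm9913 on the opposite strand, and the strand setting of the counting is not given in the sources used here, so reads of the pair may not be separable.

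Mfap2 and Mfap5 encode the microfibril-associated glycoproteins that bind fibrillins. Mfap2 (Entrez Gene 17150, chr4:141010424-141015976, plus) had 8.305, 8.002, 14.05 and 8.10 CPM in QZ1-hi and 0.537, 2.08, 3.55 and 0.532 CPM in QZ1-lo, and was 2.52 log2 units higher in QZ1-hi (SE 0.56, adjusted p = 0.00906). Mfap5 (Entrez Gene 50530, chr6:122513584-122529290, plus) had 7.92, 17.3, 20.3 and 12.99 CPM in QZ1-hi and 0.328, 0.610, 3.69 and 0.123 CPM in QZ1-lo, and was 3.61 log2 units higher in QZ1-hi (SE 0.78, adjusted p = 0.00772). Neither gene overlapped between populations. In QZ1-lo, library 4596 held 102 counts of Mfap5 where the others held 11, 15 and 3, and 98 counts of Mfap2 where the others held 18, 51 and 13. Without library 4596, the log2 fold change was 5.35 (SE 0.51, adjusted p = 0.00019) for Mfap5 and 3.21 (SE 0.52, adjusted p = 0.00216) for Mfap2, and with limma's voom and sample quality weights it was 4.93 and 3.19.

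Mfap4 (Entrez Gene 76293, chr11:61485431-61488708, plus), whose product binds tropoelastin and fibrillin, had 21.1, 33.0, 41.8 and 24.55 CPM in QZ1-hi and 1.28, 3.62, 4.70 and 0.368 CPM in QZ1-lo. The lowest QZ1-hi value was above the highest QZ1-lo value. The gene was 3.59 log2 units higher in QZ1-hi (SE 0.57, adjusted p = 0.00137), with 9 counts in the lowest library, and 4.26 with limma's sample quality weights. The other gene with a single-digit count was Mfap5, whose 3 counts in library 4598 are at the floor used here for detection.

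The fibulins divided. Fbln1 and Fbln2, the larger fibulins, which are found in elastic fibers and basement membranes, had the largest log2 fold changes of the 10 genes in the edgeR test with all libraries. That order did not hold with limma or without library 4596, where Mfap5 was above both. Without library 4596, Mfap4 (4.106) was also above both, and without library 4593 Mfap4 (3.525) was above Fbln1 (3.518). Fbln2 (Entrez Gene 14115, chr6:91212460-91272540, plus) had 53.6, 145.7, 158.8 and 64.95 CPM in QZ1-hi and 5.43, 12.9, 11.5 and 1.31 CPM in QZ1-lo, and was 3.77 log2 units higher in QZ1-hi (SE 0.60, adjusted p = 0.00141). Fbln1 (Entrez Gene 14114, chr15:85205949-85286294, plus) had 53.05, 137.1, 146.9 and 63.9 CPM in QZ1-hi and 3.04, 16.2, 10.6 and 0.491 CPM in QZ1-lo, and was 3.73 log2 units higher in QZ1-hi (SE 0.75, adjusted p = 0.00541). For both, libraries 4593 and 4595 were the higher QZ1-hi libraries and libraries 4594 and 4596 the higher QZ1-lo libraries, and the populations did not overlap. The Fbln1 value was 4.41 without library 4594 and 4.66 with limma's sample quality weights.

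Among the short fibulins, Efemp1 (Entrez Gene 216616, chr11:28853154-28926743, plus), which encodes fibulin-3, had 22.5, 73.3, 69.6 and 35.6 CPM in QZ1-hi and 6.62, 11.5, 11.5 and 2.66 CPM in QZ1-lo. It was higher in QZ1-hi without overlap, by 2.63 log2 units (SE 0.47, adjusted p = 0.00279). Efemp2 (Entrez Gene 58859, chr19:5473946-5482520, plus), which encodes fibulin-4, a protein that brings lysyl oxidase to tropoelastin, had 23.2, 19.7, 15.2 and 14.7 CPM in QZ1-hi and 9.90, 11.9, 9.08 and 7.74 CPM in QZ1-lo. The populations did not overlap, but the difference was smaller, at 0.91 log2 units (SE 0.20, adjusted p = 0.00938). Under scaling by library size only it was 0.50 (SE 0.31, adjusted p = 0.242), a setting under which the median over all tested genes was also shifted, to -0.44.

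Fbln5 (Entrez Gene 23876, chr12:101746565-101819119, minus), which encodes fibulin-5, a binding partner of tropoelastin and Loxl1 needed for fiber assembly, had 30.2, 44.7, 32.8 and 20.9 CPM in QZ1-hi and 24.6, 16.35, 21.2 and 18.5 CPM in QZ1-lo. QZ1-hi library 4597 lay below 2 QZ1-lo libraries, and the populations overlapped. The means were 32.1 ± 9.82 CPM (SD, n = 4) and 20.2 ± 3.55 CPM (SD, n = 4), and the difference of 0.67 log2 units (SE 0.22, adjusted p = 0.0559, edgeR) did not pass the threshold. It passed without library 4597 (0.86, adjusted p = 0.0122), with DESeq2 (0.67, adjusted p = 0.0341) and with limma (0.68, adjusted p = 0.0446), and its adjusted p over all 15 alternatives ran from 0.0122 to 0.657. Fbln5 had between 402 and 824 counts in each QZ1-lo library, so these values do not rest on few reads.

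To compare levels between genes, CPM were divided by the length of each gene's merged exons in kilobases (GENCODE M21). Merged exons hold the exonic bases of all annotated transcripts, from 1.211 kb for Mfap2 to 12.128 kb for Fbn1, and 6.911 kb for Fbln5. They can be longer than the transcript that the cells make, which was not determined. The order of genes and the shares below depend on these lengths. In QZ1-hi, Efemp1 (24.7 ± 12.3 CPM per kb, SD, n = 4), Fbn1 (23.6 ± 11.5) and Fbln1 (22.95 ± 11.1) led, followed by Fbln2 (16.6 ± 8.503), Mfap4 (15.7 ± 4.81), Eln (11.3 ± 3.22), Mfap2 (7.94 ± 2.44), Efemp2 (4.80 ± 1.06), Fbln5 (4.65 ± 1.42) and Mfap5 (4.08 ± 1.499). The ranges of neighbours in this order overlapped except for Mfap2 and Efemp2, where Mfap2 was higher in 4 of 4 libraries. In QZ1-lo the order of mean levels per kb was Efemp1 (3.97 ± 2.11), Fbln5 (2.92 ± 0.513), Efemp2 (2.55 ± 0.458), Fbn1 (2.48 ± 1.56), Fbln1 (1.73 ± 1.64), Eln (1.43 ± 0.944), Mfap2 (1.38 ± 1.19), Mfap4 (1.30 ± 1.05), Fbln2 (1.22 ± 0.844) and Mfap5 (0.331 ± 0.468), and the ranges of all neighbours overlapped. On this scale, Fbln5 and Efemp2 therefore had the second and the third highest mean level in QZ1-lo, and in QZ1-hi only Mfap5 was below them. Without division by length, mean CPM in QZ1-hi put Fbln5 (32.1) above Mfap4 (30.1), and Efemp2 (18.2) above Mfap5 (14.6) and Mfap2 (9.6).

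The summed level of the 10 genes was 136.2 ± 51.4 CPM per kb (SD, n = 4) in QZ1-hi, from 88.4 to 197.1, and 19.3 ± 9.35 (SD, n = 4) in QZ1-lo, from 8.06 to 28.7. As a share of that sum, Fbln5 took up between 9.46% and 33.2% in the QZ1-lo libraries and between 2.41% and 4.94% in the QZ1-hi libraries. Efemp2 took up 8.35% to 25.3% in QZ1-lo and 2.04% to 6.92% in QZ1-hi, so neither gene's share overlapped between the populations. The shares of Mfap4 (2.38% to 8.53% in QZ1-lo, 10.7% to 12.9% in QZ1-hi) and Fbln2 (2.55% to 8.07% and 9.51% to 14.3%) did not overlap either, with QZ1-hi above. The share of Efemp1 was 19.9% ± 2.72 (SD, n = 4) in QZ1-lo and 17.5% ± 4.08 (SD, n = 4) in QZ1-hi, and that of Eln 7.07% ± 1.60 (SD, n = 4) and 8.596% ± 1.52 (SD, n = 4), with overlap. Shares sum to a fixed total, so a lower share of 1 gene raises the others, and they are given as a description without a test.

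**Figure D2:**
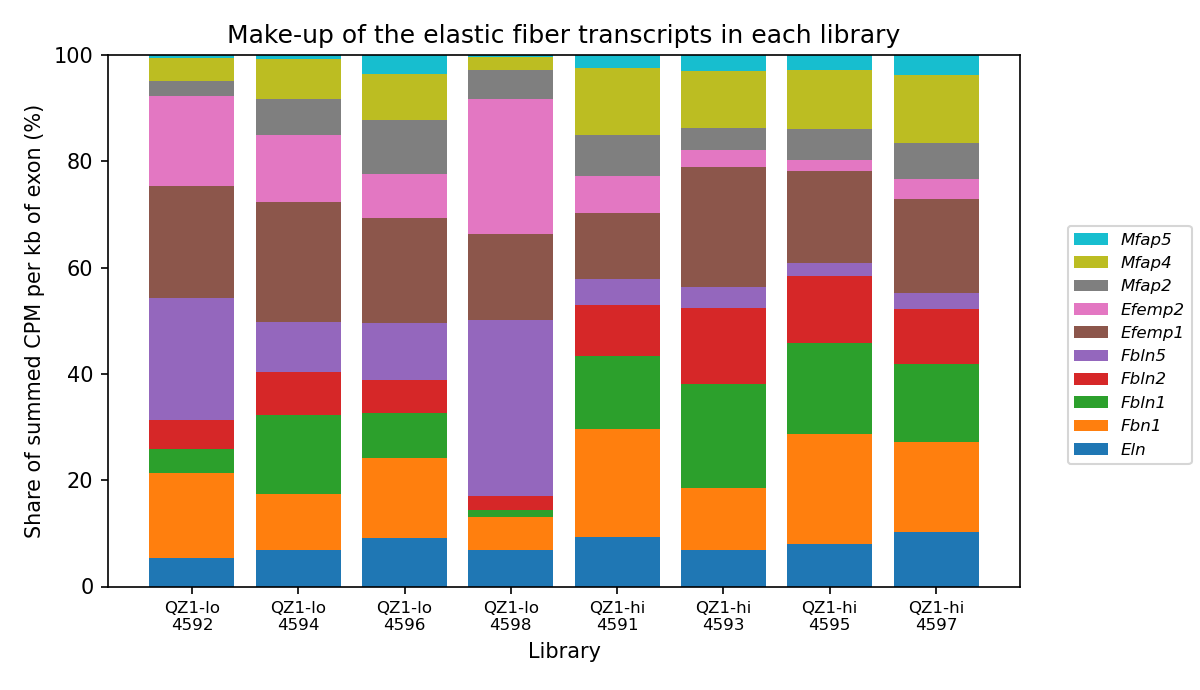
Share (%) of each of the 10 genes in their summed CPM per kb of exon, as stacked bars for the 4 QZ1-lo and 4 QZ1-hi libraries. Fbln5 (purple) and Efemp2 (pink) took up 19.1% and 15.8% on average in QZ1-lo and 3.61% and 4.02% in QZ1-hi, and library 4598 has the largest share of both.

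Ratios of related genes within a library, which need no scaling between libraries, were compared for 5 pairs by an exact permutation test over all 70 assignments of the libraries (two-sided, smallest possible p 0.0286). The largest difference was that of Efemp1 to Efemp2, whose mean log2 ratio averaged 1.33 ± 0.993 (SD, n = 4) for QZ1-hi and -0.45 ± 0.810 (SD, n = 4) for QZ1-lo, a difference of 1.78 (exact p = 0.0857, adjusted p = 0.214). Mfap2 to Mfap5 followed with a difference of -1.58 (exact p = 0.0571, adjusted p = 0.214). Here QZ1-hi held from 0.07 to -1.11, QZ1-lo from 1.80 to -0.06, and QZ1-lo library 4596 was alone in overlapping QZ1-hi. Differences were 0.43 for Fbln1 to Fbln2 (adjusted p = 0.393), -0.32 for Eln to Fbn1 (adjusted p = 0.486) and -0.27 for Fbln5 to Efemp2 (adjusted p = 0.381, exact tests). None of the 5 had an unadjusted p under 0.05. The 4 QZ1-hi libraries held nearly equal CPM of Fbln1 and Fbln2, with log2 ratios from -0.11 to -0.01, while the QZ1-lo libraries ran from -1.34 to 0.33. These ratios are not corrected for gene length, and per kb of exon Fbln1 was above Fbln2 in 4 of 4 QZ1-hi libraries.

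Each gene was also set against the fibrillar collagen genes Col1a1, Col1a2 and Col3a1 of the same library, which fibroblasts make in bulk and whose log2 fold changes were 3.26 (SE 0.54), 3.54 (SE 0.67) and 3.52 (SE 0.62). The measure is the gene's log2 CPM minus the mean log2 CPM of the 3 collagen genes, with a prior count of 1. For Fbln5 it was -4.11 ± 0.285 (SD, n = 4) for QZ1-hi against -0.82 ± 1.68 (SD, n = 4) for QZ1-lo, a difference of -3.29. For Efemp2 the difference was -3.02, from -4.90 ± 0.580 (SD, n = 4) for QZ1-hi against -1.88 ± 1.49 (SD, n = 4) for QZ1-lo, and for Efemp1 it was -1.24. In these 3 genes the populations did not overlap, with QZ1-hi below (two-sided exact p = 0.0286 by permutation, the lowest that this design can give), but none passed after adjustment over the 10 genes (adjusted p = 0.0952). The collagen genes were themselves higher in QZ1-hi, so a gene at the median of all tested genes (0.02) also falls on this scale. How many of all genes fall without overlap was not counted, so these values do not set the 3 genes apart from other genes. Without library 4598, which had the least collagen, the differences were -2.56 for Fbln5, -2.36 for Efemp2 and -0.94 for Efemp1. The other 7 genes overlapped between the populations, with differences of -1.03 for Mfap2, -0.74 for Eln, -0.42 for Fbn1, 0.12 for Fbln2, 0.13 for Mfap4, and 0.55 for both Fbln1 and Mfap5 (exact permutation tests, adjusted p from 0.214 to 0.6). Mfap4 had the narrowest spread against collagen, with every library between -4.56 and -3.94 on this scale.

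**Figure D3:**
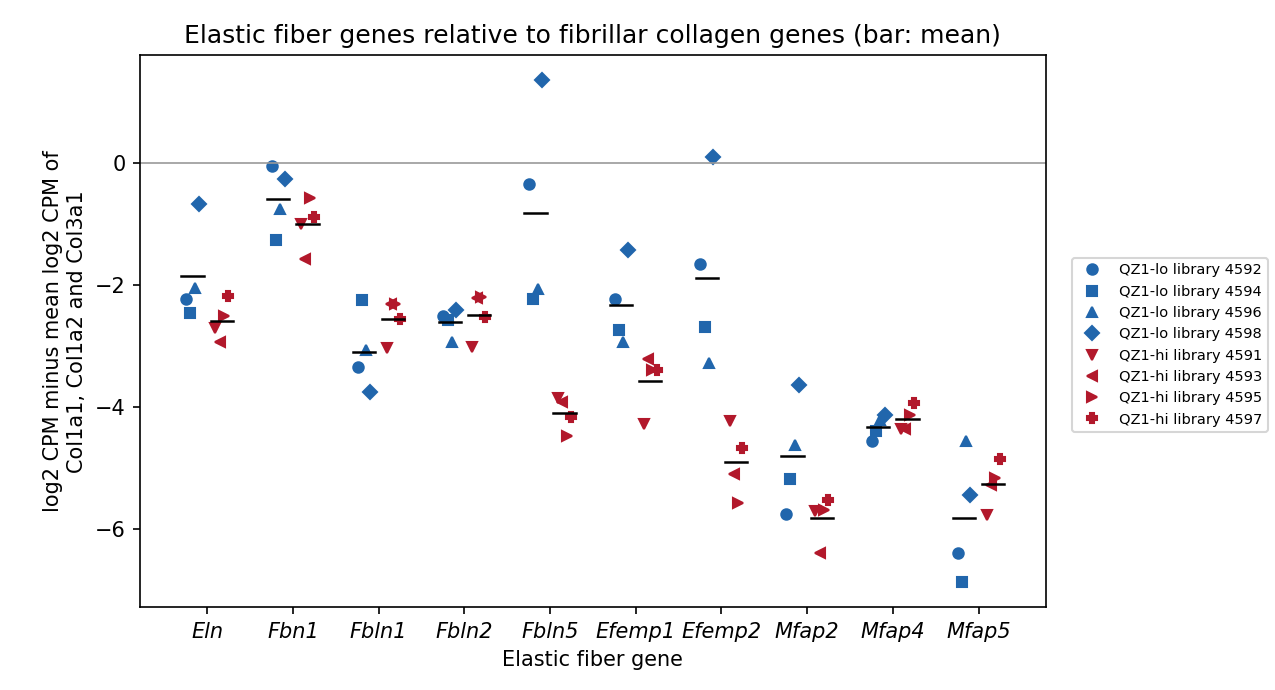
log2 CPM of each elastic fiber gene minus the mean log2 CPM of Col1a1, Col1a2 and Col3a1 in the same library, for 4 QZ1-lo (blue) and 4 QZ1-hi (red) libraries with a bar at each mean. The QZ1-hi libraries lie below the QZ1-lo libraries for Fbln5, Efemp1 and Efemp2, with means of -4.11 and -0.82 for Fbln5, while the populations overlap for the other 7 genes. The collagen genes were higher in QZ1-hi, so a gene without change also falls on this scale.

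Likeness between genes was measured as the root mean square distance of their log2 CPM over the 8 libraries, after each gene was centred on its own mean. These distances are a description, since all genes share the same 8 libraries. The 3 genes nearest to Eln were Medag at 0.137 log2 units, a gene of adipocyte development, Loxl2 at 0.254, a lysyl oxidase, and Akap12 at 0.254, a scaffold protein for protein kinase A. In QZ1-hi, Medag had 14.7, 23.6, 35.5 and 17.3 CPM and in QZ1-lo 1.49, 3.62, 5.46 and 1.02 CPM, so within each population its libraries stood in the same order as those of Eln. Of the other elastic fiber genes, Mfap2 was nearest to Eln (0.321, rank 20 of 15582 genes), then Efemp1 (0.490, rank 122) and Fbn1 (0.504, rank 135), while Efemp2 (1.33, rank 1369) and Fbln5 (1.47, rank 2104) were farthest. Col3a1 was the nearest of all genes to Mfap4 (0.098) and to Fbln2 (0.266). Fbln5 and Efemp2 were each other's nearest elastic fiber gene (0.376), although Efemp2 ranked only 964 among all genes by nearness to Fbln5.

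Genes that build, cross-link or cut elastic fibers were counted in 4 lists of 38 genes, of which 34 were tested. Of these, 19 were higher in QZ1-hi and 1 was lower, with a median log2 fold change of 1.53. Over all 15583 genes tested, 9.88% were higher, 8.21% were lower and the median was 0.02. The 20 genes without overlap that were higher in QZ1-hi included Ltbp3, which did not pass the test, where 11.9% of all genes tested had no overlap. The same shares apply beside the counts of each list and of the markers below. All 5 lysyl oxidases, which cross-link elastin and collagen, were higher (median 3.08). Loxl1, a family member tied to elastin, had 38.9, 66.1, 71.75 and 41.1 CPM in QZ1-hi and 2.53, 8.38, 5.21 and 1.15 CPM in QZ1-lo, without overlap and 3.66 log2 units apart (SE 0.49, adjusted p = 0.000629). Lox, with 16.1 ± 4.597 CPM (SD, n = 4) against 1.76 ± 1.02 (SD, n = 4), had a log2 fold change of 3.18. Those of Loxl2, Loxl3 and Loxl4 were 3.08, 2.47 and 1.75, each without overlap, and Loxl4 did not pass with scaling by library size only (1.31, adjusted p = 0.0658).

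Of 14 tested microfibril partners, 9 were higher and none was lower (median 1.75; edgeR; at an unadjusted p under 0.05 Npnt was lower). Ltbp4, a latent TGF-beta binding protein that also binds fibulins, had 99.8, 137.8, 294.7 and 135.2 CPM in QZ1-hi and 7.185, 16.3, 29.8 and 5.32 CPM in QZ1-lo, and was 3.51 log2 units higher in QZ1-hi (SE 0.54, adjusted p = 0.00117). Its order of libraries was close to that of Fbn1, with library 4595 highest and library 4598 lowest. The other 8 were Mmrn1 (3.93) and Mmrn2 (3.31), multimerins made by endothelial cells, the hemicentins Hmcn2 (3.33) and Hmcn1 (2.88), Ltbp1 (2.90), Vcan (2.06), Ltbp2 (1.44) and Emilin1 (1.28). Among them, the Hmcn2 value was 2.24 without library 4595. Without library 4596, Ltbp4 was 4.12, Mmrn2 was 4.01 and Hmcn1 was 3.58. Emilin2 (0.61, adjusted p = 0.0547), Ltbp3 (0.45, adjusted p = 0.0637), Npnt (-0.42, adjusted p = 0.144), Fbn2 and Emilin3 did not pass, and Fbln7 was too low to be tested. Fbn2, the other fibrillin of the mouse, had no more than 2.71 CPM in any library.

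Of the 8 ADAMTS and ADAMTSL genes whose products act on or bind microfibrils, 4 were higher: Adamtsl3 (3.66, SE 0.81), Adamtsl2 (2.79, SE 0.48), Adamts6 (1.62, SE 0.45) and Adamts10 (1.22, SE 0.24). Adamtsl3 was at 2.88 without library 4595, which held 29.8 CPM, and at 5.01 without library 4596. Adamts6 lost its call without library 4591 (adjusted p = 0.113), 4593 (adjusted p = 0.0534), 4594 (adjusted p = 0.0615) or 4598 (adjusted p = 0.0671), with log2 fold changes from 1.25 to 1.65. Under scaling by library size only, neither Adamts6 (1.19, adjusted p = 0.112) nor Adamts10 (0.71, adjusted p = 0.0883) passed. Adamts17, Adamtsl4, Adamtsl5 and Thsd4 did not pass.

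Of 10 genes for enzymes that can degrade elastin, 7 were tested, of which 1 was higher, 1 was lower and 5 did not pass (median 0.38). Over all genes tested, 9.88% were higher and 8.21% were lower, so these counts do not set the list apart. Mmp2, gelatinase A, was higher, with 46.5, 52.1, 76.95 and 40.6 CPM in QZ1-hi and 4.11, 8.01, 10.4 and 1.51 CPM in QZ1-lo (log2 fold change 3.17, SE 0.46, adjusted p = 0.000937). Mmp9, gelatinase B, was lower, with 11.7, 12.15, 12.7 and 22.8 CPM in QZ1-hi and 24.9, 26.3, 31.5 and 27.2 CPM in QZ1-lo (log2 fold change -0.89, SE 0.22, adjusted p = 0.0154). The populations did not overlap for either gene. Mmp12, the macrophage elastase, ran from 25.5 to 211.3 CPM in QZ1-hi and from 19.7 to 210.0 CPM in QZ1-lo (0.26, adjusted p = 0.861), and Mmp14, Ctsk, Ctsl and Ctss did not pass. Mmp7 had 0 counts in all 8 libraries, and Elane and Prtn3 were too low to be tested.

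**Figure D4:**
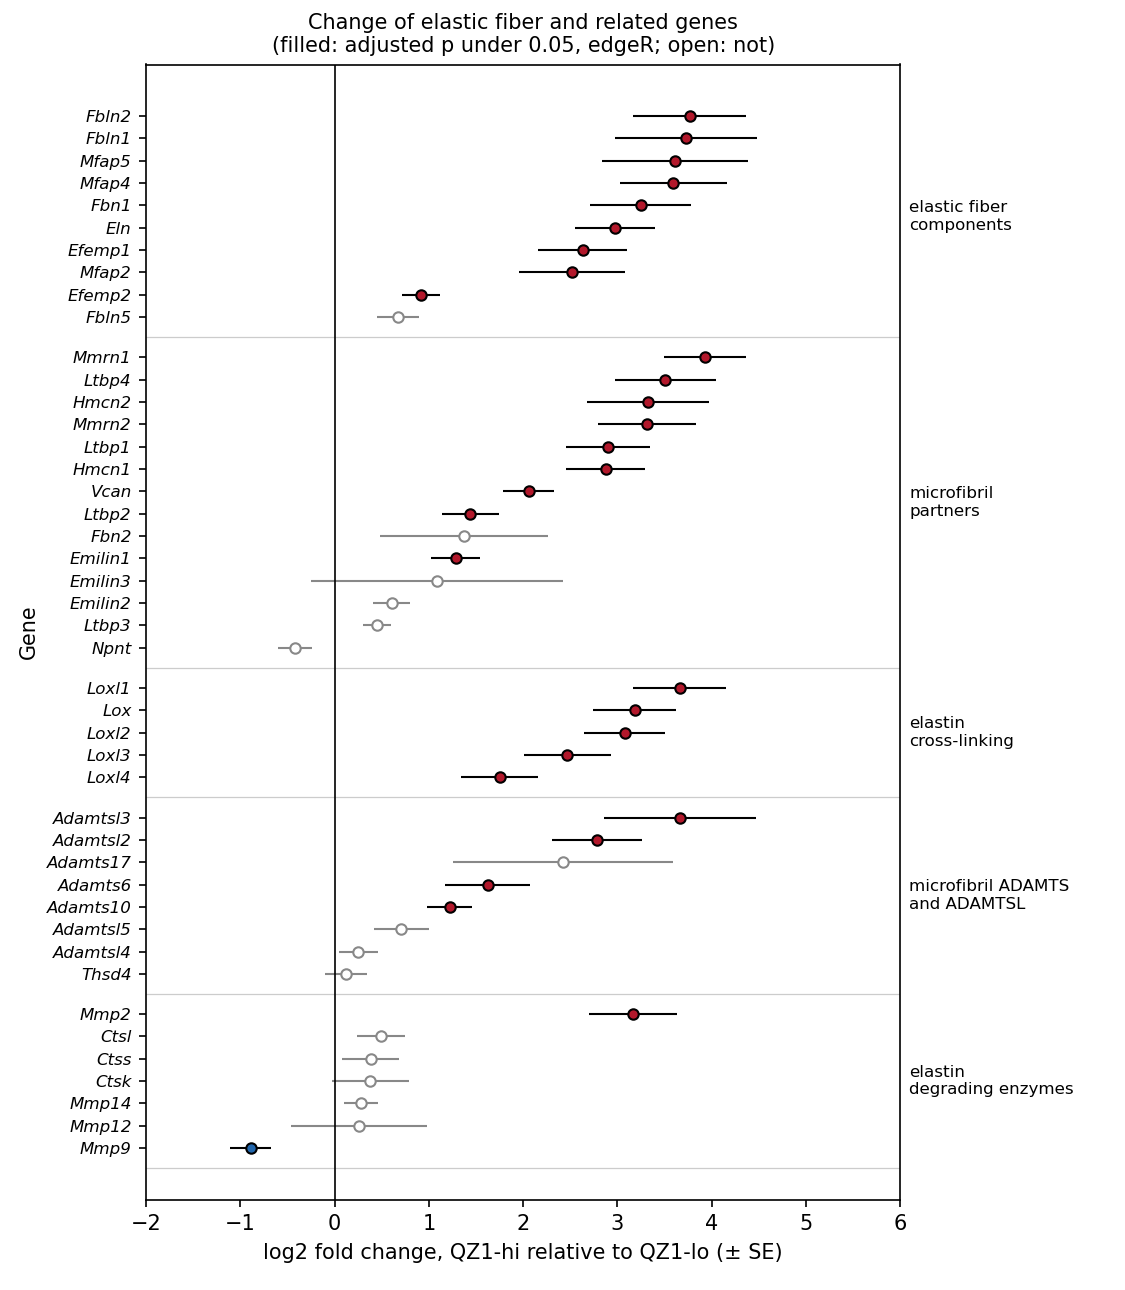
log2 fold change of QZ1-hi relative to QZ1-lo with its SE for the 10 elastic fiber genes and the 34 tested genes of the 4 related lists, sorted within each list. Filled points (red higher, blue lower) had an adjusted p under 0.05 in edgeR and open points did not, and 8 of the 10 elastic fiber genes lie between 2.52 and 3.77, apart from Efemp2 (0.91) and Fbln5 (0.67).

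Markers of several fibroblast and vascular cell types were also higher in QZ1-hi, while those of smooth muscle went both ways and those of alveolar fibroblasts were not called. Summed fibrillar collagen ran from 1242 to 2365 CPM in QZ1-hi and from 25.7 to 283.6 in QZ1-lo, and QZ1-lo library 4598, lowest for 9 of the 10 elastic fiber genes, was also the lowest for collagen. Summed adventitial fibroblast markers ran from 95.98 to 303.8 CPM against 8.35 to 29.75 (3 of 3 higher), matrix fibroblast markers from 1541 to 2588 against 546.4 to 989.2 (3 of 4 higher) and myofibroblast markers from 77.03 to 171.3 against 27.1 to 38.9 (2 of 5 higher). On average, most of the matrix fibroblast sum was Fn1 (means of 1259 and 601.9 CPM, log2 fold change 1.06), and Tcf21 did not pass. Of the myofibroblast markers, Aspn and Pdgfra were higher. Fgf18 (1.23), Rgs2 (0.26) and Wif1 (-1.82) did not pass, and Wif1 was lower at an unadjusted p under 0.05 (edgeR). Pericyte markers ran from 197.1 to 336.3 CPM against 26.5 to 70.6 (4 of 7 higher), mesothelial markers from 29.7 to 208.0 against 5.44 to 27.5 (3 of 3), smooth muscle markers from 13.3 to 27.5 against 7.45 to 12.1 (of 3, Tagln was higher, Cnn1 was lower and Acta2 did not pass), general capillary markers from 898.7 to 1788 against 212.3 to 342.3 (5 of 5) and aerocyte markers from 218.6 to 401.5 against 48.2 to 127.0 (3 of 4). Of the mesothelial markers, Msln and Upk3b overlapped between the populations, and the sum of 208.0 CPM was that of library 4593, where Upk3b had 125.6 CPM. Alveolar fibroblast markers reached at most 2.77 CPM in sum, and 1 of 3 was tested. Ciliated cell markers ran from 241.3 to 363.5 CPM in QZ1-hi and from 656.4 to 884.5 in QZ1-lo (5 of 5 lower), and of 8 alveolar type 2 markers 1 (Sftpc) was higher and 4 were lower. The alveolar type 2 sum, most of it surfactant genes, ran from 4951 to 9169 CPM in QZ1-hi and from 4244 to 6601 in QZ1-lo. Both populations held lung epithelial RNA, with Sftpc between 1913 and 5617 CPM, and blood cell RNA despite the gate, with Ptprc between 71.4 and 221.8 CPM. Summed blood cell markers ran from 227.4 to 798.4 CPM in QZ1-hi and from 310.2 to 1528 in QZ1-lo. Of 7, Ppbp was higher (log2 fold change 2.51). The other 6 did not pass: Ptprc (0.06), Cd68 (0.35), Cd79a (-0.18), Cd3e (-1.07), Hbb-bs (-1.61) and Hba-a1 (-1.63). No list had a marker at 0 counts in all libraries. The part of cell type makeup in the differences of the elastic fiber genes was not tested.

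Total counts per library ran from 18380918 to 26847938, and mitochondrial genes took up 43.7% to 65.6% of them in QZ1-hi and 34.0% to 53.2% in QZ1-lo. With mitochondrial and ribosomal RNA genes removed, 9 of the 10 elastic fiber genes were again called. In QZ1-hi, library 4595 was the highest for 7 of the 10 genes and library 4591 the lowest for 6. In QZ1-lo, library 4596 was the highest for 6 and library 4598 the lowest for 9, all but Fbln5. Without library 4598, 9 genes were called, with log2 fold changes from 0.82 for Efemp2 to 3.42 for Fbln2, and Fbln5 was not (0.63, adjusted p = 0.122).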

How the data were processed

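The authors counted reads of SMARTer stranded total RNA libraries, sequenced on a NextSeq500, on genes with Rsubread and deposited raw counts without normalization, 1 column per library, for 27179 Entrez Gene identifiers. The submitters' processing notes name mm10 and DESeq2. Aligner, annotation and strand setting are not given in the sources used here. Symbols were found for 25275 identifiers (1904 had none). The 10 genes, the 4 related lists and the marker lists, most of them from the study's own table of marker genes, were chosen with earlier results of these data known.

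The deposited counts were fitted with edgeR 4.0.16 under R 4.3.3. TMM scaling (factors 0.660 to 1.35) and filterByExpr with a minimum count of 10 and a minimum total of 15 left 15583 genes (common dispersion 0.113). The populations were compared by the quasi-likelihood test with Benjamini-Hochberg adjustment and a threshold of 0.05. The SE was derived from each log2 fold change and its F statistic (absolute change over root F). Samples were grouped by the sort condition in the labels. The labels call the 4 libraries of a population biological replicates. The detection floor of 3 counts was 0.0894 to 0.179 CPM and covers counting error only, because the reads carry no molecular identifiers and do not count molecules independently. For within-library values, the exact permutation test (two-sided) used all 70 assignments. The fits across genes were first run on simulated counts with known changes, most of which were recovered, with no call of the wrong sign. The permutation test was instead checked against another implementation on random numbers.

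Named genes were all 10 elastic fiber genes, genes of the 4 lists past the threshold or at the highest levels, the marker genes, and the 3 genes nearest to Eln. Genes of the lists that did not pass, the genes nearest to Mfap4 and Fbln2 and Col1a1, Col1a2 and Col3a1 were named in addition, some after their values were seen. Exon lengths come from GENCODE M21 on GRCm38, and gene starts and ends from RefSeq. Promoters come from RefSeq on GRCm38.p6, which matched 7 of the 10 genes. On the same strand, no other gene overlapped an exon of the 10 genes, and shared stretches of 50 bases were 0.1% in Eln and 0% in the others. On the opposite strand, 4.6% of the exonic bases of Efemp2 (Mus81) and of Mfap4 (Mapk7) and 3.3% of those of Eln (Gm30003) were overlapped.

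Alternatives were DESeq2 1.42.0 (Wald test), limma 3.58.1 (voom, sample quality weights), scaling in edgeR by DESeq2 size factors or by library size only, mitochondrial and ribosomal RNA genes removed, no filter, at least 10 counts in every library, prior counts of 0.25 and 5 for within-library values, and each library left out in turn.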

Additional observations from a re-analysis of the deposited data

Results flagged for a closer look

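In the QZ1-hi population, Fbn1 in library 4595 had 494.7 CPM, and its gap to the next library was 0.919 of the range of the group. Mfap2 in the same library had 14.05 CPM, with a gap of 0.950 of the range. In QZ1-lo, Mfap5 in library 4596 had 3.69 CPM, with a gap of 0.863 of the range. Each gap was above the critical value of Dixon's test at this sample number. Of 22 groups of 4 libraries tested, 3 were singled out, and chance gives about 1 in 20.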

How the results depend on the processing

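Eln, Fbn1, Fbln1, Fbln2, Efemp1 and Mfap2 were called higher in QZ1-hi under all 15 alternatives. Mfap4 and Mfap5 were called in 14 of 14, since they were not tested where at least 10 counts were asked of every library. Efemp2 was called in 14 of 15 and Fbln5 in 3 of 15. The number of the 10 genes called was 9 in the reported test, 10 with DESeq2, limma or without library 4597, 8 with library size only and 7 with at least 10 counts in every library. Library size only gave 2 related genes lower where 1 was reported, 2 ADAMTS and ADAMTSL genes higher where 4 were, 882 genes higher and 2509 lower over all genes tested, and log2 fold changes of -0.15 for Ctss and -0.33 for Thsd4, both positive in the reported test and called in neither. At least 10 counts in every library also gave 2 ADAMTS and ADAMTSL genes higher, since Adamtsl2 and Adamtsl3 were not tested there. Thsd4 ran from -0.028 to 0.294 with each library left out, also at -0.004. Relative to collagen, Mfap4 was at -0.044 with a prior count of 5. The cause of these shifts was not tested. No paired analysis was possible because no source states which libraries of the 2 populations came from 1 mouse. Depth limits Mfap5, Mfap4, Mfap2 and Fbln1 in library 4598, which held 3, 9, 13 and 12 counts.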

Other observations

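Some genes for elastin-degrading enzymes varied more within a population than between populations. Mmp12, the macrophage elastase, had 211.3, 52.2, 25.5 and 140.9 CPM in QZ1-hi libraries 4591, 4593, 4595 and 4597 and 210.0, 35.7, 19.7 and 92.8 CPM in QZ1-lo libraries 4592, 4594, 4596 and 4598. Ctsk, a cathepsin, had 131.6, 54.97, 42.3 and 139.3 CPM in the same QZ1-hi libraries and 99.8, 50.04, 37.1 and 95.97 CPM in the same QZ1-lo libraries. In both genes, libraries with consecutive numbers had like values, but no source states what consecutive numbers share, and no pairing was used.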
